A study of Mus musculus with 24 samples.

Results

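The lysosome's proton pump and the proteins of its membrane were followed as a set of 43 genes out of the 55487 in the deposited gene table. The set was drawn by name. It held the genes of the V1 sector (13) and the V0 sector (9) of the vacuolar-type H+-ATPase (V-ATPase), 2 accessory subunits, 5 Ragulator genes, 13 other genes of the lysosomal membrane, and Atp6v1fnb, which is a neighbour of Atp6v1f and no subunit and entered through its symbol alone. Polyadenylated RNA was sequenced from fibroblasts grown out of mouse embryos (MEFs). The cells were labelled wild-type (WT) or AMPK KO, which stands for a loss of AMP-activated protein kinase, an enzyme that responds to low cellular energy. Per the methods of the study the knockout cells lack Prkaa1 and Prkaa2, the genes of the 2 catalytic subunits. Cells of each genotype received the vehicle DMSO, the AMPK activator MK-8722, or torin1, which inhibits the kinase MTOR, giving 6 groups of 4 libraries and 24 libraries in all. The labels give each library a passage, which ran from 12 to 15 in WT and from 16 to 19 in AMPK KO, so genotype and passage range cannot be told apart. The 4 libraries of a group came from 4 different passages, so p values measure the spread between passages of 1 line per genotype. Doses and treatment times are not in the labels.

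The V-ATPase pumps protons into lysosomes and other compartments. Its cytosolic V1 sector hydrolyses ATP in a head of A and B subunits and turns a central stalk built from D and F. The membrane-bound V0 sector carries protons through a ring of c-type subunits past subunit a. The Ragulator complex anchors Rag GTPases, and through them the kinase complex MTORC1, to the lysosomal surface. Many lysosomal genes carry E-box motifs of the CLEAR type, which transcription factors of the MiT/TFE family, TFEB and TFE3 among them, are known to bind.

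Library totals ran from 26900240 to 34192685 estimated counts, and RNA integrity numbers from 9.7 to 10. Prkaa1 was present in both genotypes, at 2043 to 2773 counts in the 12 WT libraries and 2046 to 2686 in the 12 libraries labelled AMPK KO. Prkaa2 had 88 to 271 and 78 to 186 counts, so these levels do not separate the genotypes. A deletion that leaves the rest of a transcript in place would not show in a count over the whole gene. The cell lines differed in sex-linked transcripts, with 7806 to 15981 counts of Xist in WT against 1 to 3 in AMPK KO, and 0 counts of the Y-linked Ddx3y in WT against 2 to 23. Of 10 fibroblast markers, 7 reached 1 CPM (counts scaled to library size) in WT DMSO and 7 in AMPK KO DMSO, with summed levels of 11200 to 15900 and 4800 to 5370 CPM. Col1a2, a collagen gene, was at 2500 ± 601 CPM in WT DMSO and 28.4 ± 12.6 CPM in AMPK KO DMSO (SD, n = 4 each), and the proteoglycan genes Dcn and Lum were near 0 in both. Markers of macrophages and osteoclasts, cells rich in the V-ATPase, summed to between 1.57 and 3.73 CPM. Of these 10 markers 1 reached 1 CPM in each group, and Tyrobp was at 0 in every group. Of the 3 with enough counts to be tested, 2 were higher in AMPK KO DMSO than in WT DMSO by the rule given below. Among all tested genes 30.9% were.

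Of the 43 genes, 38 had enough counts to be tested. Atp6v0d2, Atp6v1e2 and Atp6v1g3, isoforms known from tissues such as osteoclasts, testis and kidney, had 0 counts in every library, Atp6v1b1, the kidney form of subunit B, had at most 3, and Atp6v1fnb at most 1. A further pair of isoforms, Atp6v0a4 and Atp6v1c2, passed the filter only through the AMPK KO groups. A floor of 3 counts, which covers counting error alone, was equal to 0.0885 to 0.118 CPM in these libraries.

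Levels between genes were compared as TPM, a measure of transcript abundance scaled for length and library size. In WT cells with DMSO the most abundant transcripts of the set were those of Atp6v0c, the ring subunit of V0, at 568 ± 24.3 TPM, Cd63, a tetraspanin, at 526 ± 10.5 TPM, and Lamp1, a heavily glycosylated membrane protein, at 444 ± 24.2 TPM (SD, n = 4 each). The libraries of Atp6v0c (535 to 594 TPM) and Cd63 (515 to 537 TPM) overlapped, and those of Lamp1 (418 to 476 TPM) lay below both. At the other end of the tested genes above 1 TPM were Slc38a9, an amino acid sensor of the membrane, at 2.27 ± 0.741 TPM, Atp6v0e2, a form of V0 subunit e, at 4.12 ± 0.441 TPM, and Ctns, the cystine exporter, at 4.73 ± 0.639 TPM. Subunits of 1 complex were not at 1 level. Within V1, the peripheral stalk gene Atp6v1g1 was at 120 ± 4.20 TPM and the central stalk gene Atp6v1d at 18.2 ± 0.889 TPM in WT DMSO.

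The isoforms of a subunit were set against each other by their share of the subunit's TPM. For subunit a, which steers the pump to its compartment, Tcirg1 (the a3 form, counted here among regulators) held 49.7 ± 0.914%, Atp6v0a2 25.6 ± 0.781% and Atp6v0a1 24.7 ± 1.05% in WT DMSO. In AMPK KO DMSO Tcirg1 held 62.4 ± 2.37%, and its share in the 4 libraries (59.1 to 64.6%) did not overlap that in WT (48.6 to 50.8%). For the small V0 subunit e, Atp6v0e2 held 3.18 ± 0.180% in WT DMSO and 19.1 ± 1.53% in AMPK KO DMSO, and 7.41 ± 1.65% and 27.3 ± 1.85% with torin1. For subunit G, Atp6v1g2 held 5.13 ± 0.679% in WT DMSO, 3.09 ± 0.378% with MK-8722 and 7.93 ± 0.869% with torin1 (SD, n = 4 each). A share also moves with the other form. With MK-8722 in WT, Atp6v1g2 went from 6.52 ± 1.07 to 6.30 ± 0.715 TPM and Atp6v1g1 from 120 ± 4.20 to 198 ± 7.36 TPM. With torin1 in AMPK KO, Atp6v0e2 went from 31.6 ± 1.44 to 36.4 ± 2.47 TPM and Atp6v0e from 134 ± 9.94 to 97.0 ± 3.90 TPM. Subunits B, C, d and E were represented by 1 form each, Atp6v1b2, Atp6v1c1, Atp6v0d1 and Atp6v1e1, at 99.5% or more of the mean in every group.

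**Figure D1:**
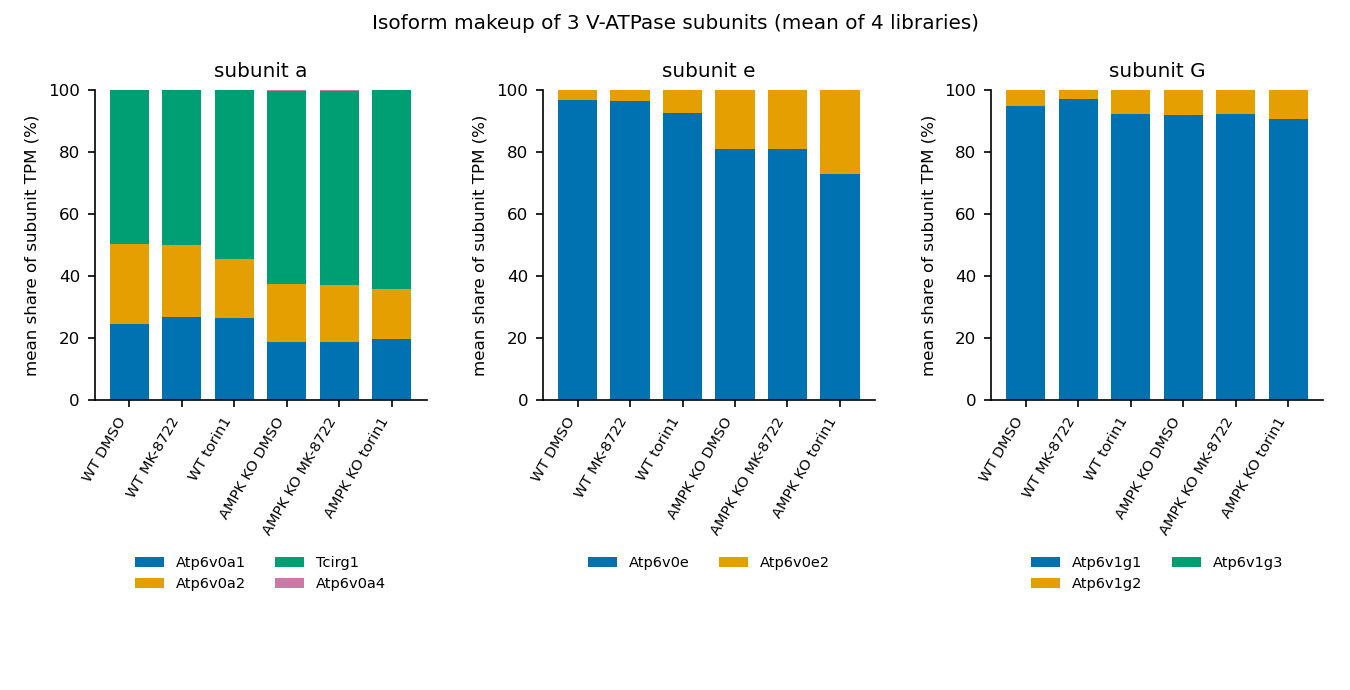
Share of each isoform in the summed TPM of its subunit (y axis, %), as the mean of 4 libraries, for subunits a, e and G in the 6 groups (x axis). Tcirg1 takes 49.7% of subunit a in WT DMSO and 62.4% in AMPK KO DMSO, and Atp6v0e2 takes 3.18% and 19.1% of subunit e.

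MK-8722 raised most of the set in WT cells. A call required a change of 1.2-fold or more together with an adjusted p below 0.05, by edgeR's quasi-likelihood test with Benjamini-Hochberg adjustment over the 15828 genes tested. On that rule 28 of the 38 tested members rose and 0 fell, against 10.0% of all tested genes that rose and 5.66% that fell. Of 4 endothelial markers 1, Kdr, moved with MK-8722 in WT, which took their sum from 0.878 to 1.28 CPM up to 4.44 to 8.60 CPM, while Pecam1 and Cdh5 stayed near 0. The members' median log2 fold change was 0.55, beside -0.00 for all tested genes.

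The rise reached both sectors of the pump. Of 10 tested V1 genes 8 rose, with a median log2 fold change of 0.87. They included Atp6v1a (0.82) and Atp6v1b2 (0.91), the A and B subunits of the ATP-hydrolysing head. The others were Atp6v1c1 (0.94), Atp6v1e1 (0.81) and Atp6v1g1 (0.69) of the peripheral stalks and their collar, Atp6v1d (1.25) and Atp6v1f (0.46) of the central stalk, and Atp6v1h (0.95), a regulatory subunit. Of 8 tested V0 genes 5 rose, namely Atp6v0b (1.37) and Atp6v0c (0.35) of the proton-carrying ring, Atp6v0d1 (1.02), which couples ring and stalk, Atp6v0a1 (0.47) and Atp6v0e2 (0.46). Atp6v0a2 (0.13, SE 0.040) and Atp6v0e (0.19, SE 0.063) stayed under the fold threshold, and Atp6v1g2 had a log2 fold change of -0.26 (SE 0.103). Both accessory subunits, Atp6ap1 (0.43) and Atp6ap2 (1.13), rose.

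Atp6v0b (ENSMUSG00000033379, chr4:117884326-117887333 in GRCm38, as are all gene positions given here) had the largest rise of V0. In the WT libraries, listed by rising passage, it was at 50.8, 51.6, 53.8 and 49.3 CPM with DMSO, 134, 135, 132 and 129 CPM with MK-8722, and 64.7, 51.0, 55.2 and 57.3 CPM with torin1. The MK-8722 libraries formed a narrow band apart from both other groups. The change was 2.58-fold (log2 1.37, SE 0.073, edgeR adjusted p = 7.6e-12). In AMPK KO it was at 47.2, 45.6, 45.8 and 47.1 CPM with DMSO, 51.8, 48.1, 47.3 and 50.7 CPM with MK-8722, and 75.5, 53.1, 64.2 and 61.6 CPM with torin1, where the MK-8722 libraries lay just above DMSO without a call (log2 0.09) and the torin1 libraries above both.

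Atp6v1d (ENSMUSG00000021114, chr12:78840725-78861638) was at 25.1, 25.5, 25.1 and 28.7 CPM with DMSO, 54.8, 67.2, 64.6 and 61.0 CPM with MK-8722, and 40.0, 32.6, 41.2 and 37.7 CPM with torin1 in WT. Every MK-8722 library was above every torin1 library, and these were above every DMSO library. The change with MK-8722 was 2.37-fold (log2 1.25, SE 0.089, edgeR adjusted p = 3.2e-10). In AMPK KO Atp6v1d was at 34.6, 34.1, 34.6 and 36.3 CPM with DMSO, 31.8, 33.2, 35.3 and 32.8 CPM with MK-8722, and 54.5, 38.8, 55.1 and 48.8 CPM with torin1, with torin1 alone standing apart.

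Among the other membrane genes 11 of 13 rose with MK-8722 in WT. Ctns (ENSMUSG00000005949, chr11:73183596-73199042), the cystine exporter that is lost in cystinosis, had the largest rise of the set at 2.89-fold (log2 1.53, SE 0.128, edgeR adjusted p = 3.7e-09). Its WT libraries were at 6.25, 8.05, 7.86 and 7.57 CPM with DMSO, 21.9, 24.5, 21.1 and 18.3 CPM with MK-8722, and 16.9, 18.3, 18.2 and 18.3 CPM with torin1. Both drugs put it above DMSO with no overlap. In AMPK KO it was at 8.60, 6.21, 6.51 and 6.71 CPM with DMSO, 7.55, 5.59, 6.47 and 5.42 CPM with MK-8722, and 19.5, 13.1, 15.1 and 13.6 CPM with torin1, so only the torin1 libraries were high there. The calcium channel gene Mcoln1 (1.14), the chloride-proton exchanger gene Clcn7 (0.85) and Ostm1 (1.09), its partner subunit, the cholesterol transporter gene Npc1 (1.02), Scarb2 (0.59), which carries glucocerebrosidase to the lysosome, Lamp2 (0.62), Lamp1 (0.50), Tmem192 (0.55), Cd63 (0.53) and Slc38a9 (0.39) rose as well. The 2-pore channel genes were not called, with log2 fold changes of -0.17 (SE 0.062) for Tpcn1 and 0.02 (SE 0.072) for Tpcn2. Of the 5 Ragulator genes Lamtor3 (0.55) and Lamtor1 (0.33) rose, and Lamtor4 (0.24, SE 0.057), Lamtor5 (0.07, SE 0.054) and Lamtor2 (0.06, SE 0.055) were not called.

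**Figure D2:**
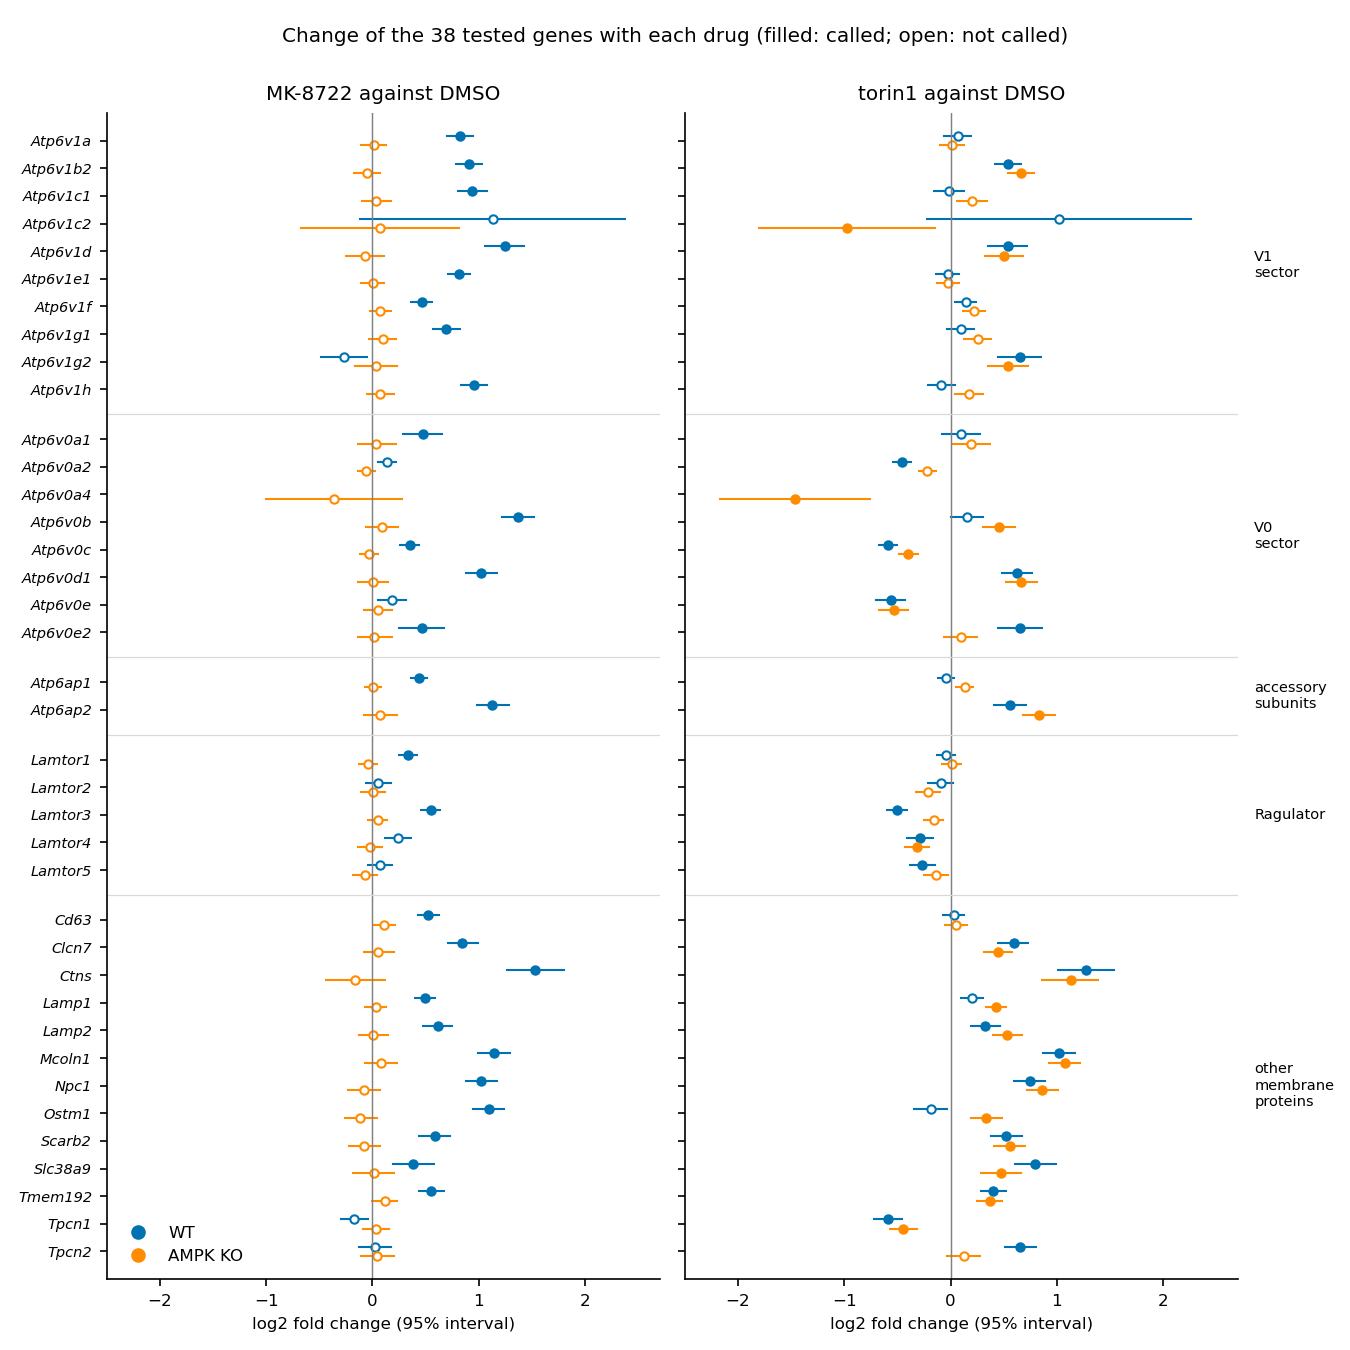
Log2 fold change with its 95% interval (x axis) of the 38 tested genes (rows, by role) for each drug relative to DMSO, with WT in blue and AMPK KO in orange, 4 libraries a group. Filled points were called and open points were not, and Atp6v0a4 is not drawn in WT, where it had at most 3 counts. With MK-8722 28 WT points and 0 AMPK KO points are filled, and with torin1 both genotypes have filled points on both sides of 0.

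In AMPK KO cells MK-8722 gave 0 calls among the 38 members, where 0.866% of all tested genes rose and 0.695% fell. Cd63 and Tmem192 were the 2 members at an unadjusted p under 0.05 in edgeR, with log2 fold changes of 0.11 and 0.12. Among all 15828 tested genes 2610 were under that value, and DESeq2 also called 0 members. The 28 genes that rose in WT had log2 fold changes between -0.16 and 0.12 in AMPK KO, and the 95% intervals of all 28 lay within -0.44 and 0.24. For 27 of the 28 the interval in WT lay wholly above that in AMPK KO. The 28 were picked by their rise in WT, so that count is a description and not a test. The test of the difference itself, the MK-8722 by genotype interaction, called 28 members lower in AMPK KO and 0 higher, against 7.66% and 5.12% of all tested genes. The largest differences were those of Ctns at -1.70 (SE 0.186, adjusted p = 9.2e-07) and Atp6v1d at -1.32 (SE 0.125, adjusted p = 1.5e-07), on the log2 scale as AMPK KO minus WT by edgeR's test. Slc38a9 rose in WT without a called difference between genotypes (-0.37, SE 0.133), and Lamtor4 was called for the difference (-0.26, SE 0.079, edgeR adjusted p = 0.024) without a called rise in WT, a call that some other settings did not keep.

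Promoters were read for the E-box, since members that rose together can be set beside the letters they share. RefSeq windows of GRCm38.p6 from 250 bases before to 50 bases after a start were given for 34 members. The core CACGTG was in 9 of the 34 (26.5%) and in 8.09% of the 27025 genes with a window. TCACGTG or its reverse complement, which contains that core, was in the same 9 members and in 4.29% of all those genes. TCACGTGA, which contains both, was in 5 members (14.7%) and 1.12% of genes, and that form with a further G before and C after it was in 0 members and 0.370% of genes. The 9 genes were Atp6v0b, Atp6v0d1, Atp6v0e, Atp6v1a, Clcn7, Lamp1, Lamtor1, Lamtor4 and Mcoln1. Of these 9, 7 rose with MK-8722 in WT, where 73.7% of the tested members rose, and Atp6v0e and Lamtor4 were not called. With torin1 in WT Atp6v0d1, Clcn7 and Mcoln1 rose and Atp6v0e and Lamtor4 fell. The windows of Ctns and Atp6v1d, which were among the 3 largest rises, do not hold TCACGTG in either direction. A match or its absence describes these letters in this window alone.

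**Figure D3:**
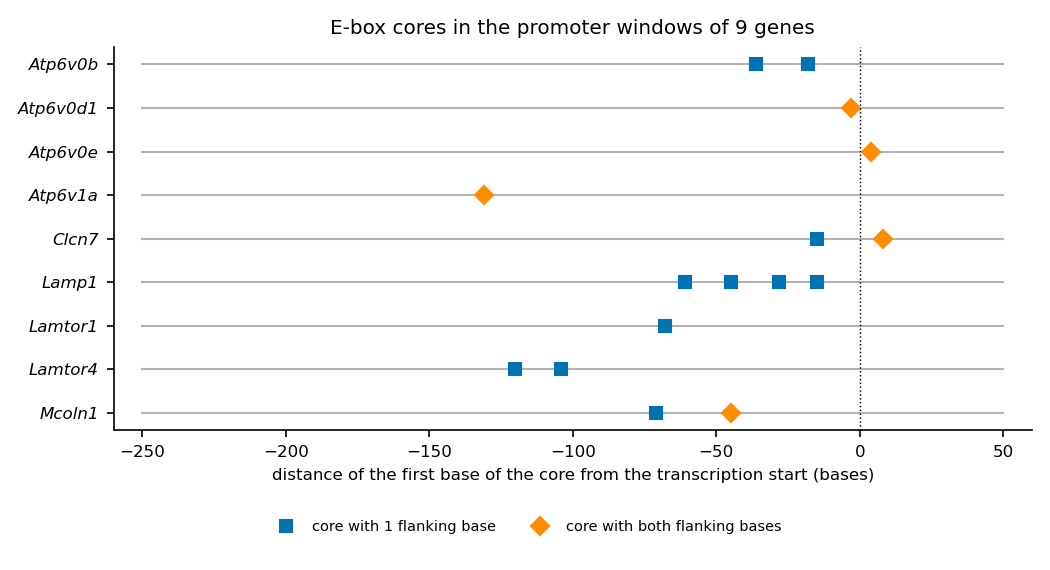
Position of each E-box core (first base, x axis, bases from the transcription start, dotted line) in the promoter windows of the 9 genes that hold one (rows). Squares mark cores with 1 flanking base of the longer motif and diamonds cores with both, and Lamp1 holds 4 cores, the most of any member.

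The 150 bases before the start are printed for 3 genes with the motif and for 2 of the largest rises without it, counted from the RefSeq start, which can differ from the GENCODE gene boundary. They run 5′ to 3′ on the gene's strand in GRCm38.p6, with capitals on each E-box core and its matching flank. Lamp1 was added after its hits were seen, as the gene with the most cores. The regions are chr4:117887330-117887479 (minus strand) for Atp6v0b, chr8:3500369-3500518 (plus) for Mcoln1, chr8:13159011-13159160 (plus) for Lamp1, chr11:73199043-73199192 (minus) for Ctns and chr12:78861639-78861788 (minus) for Atp6v1d.
Atp6v0b: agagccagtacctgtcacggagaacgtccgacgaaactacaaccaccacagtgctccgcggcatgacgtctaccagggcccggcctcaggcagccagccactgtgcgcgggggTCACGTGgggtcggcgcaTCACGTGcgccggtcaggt
Mcoln1: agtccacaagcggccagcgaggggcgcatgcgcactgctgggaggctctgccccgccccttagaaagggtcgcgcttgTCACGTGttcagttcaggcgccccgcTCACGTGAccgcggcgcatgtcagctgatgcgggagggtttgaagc
Lamp1: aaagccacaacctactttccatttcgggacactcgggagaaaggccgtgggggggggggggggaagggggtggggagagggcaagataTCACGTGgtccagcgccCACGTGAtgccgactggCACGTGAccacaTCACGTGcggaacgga
Ctns: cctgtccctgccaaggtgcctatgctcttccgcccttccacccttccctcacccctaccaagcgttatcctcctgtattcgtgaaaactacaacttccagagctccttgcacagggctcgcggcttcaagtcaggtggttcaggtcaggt
Atp6v1d: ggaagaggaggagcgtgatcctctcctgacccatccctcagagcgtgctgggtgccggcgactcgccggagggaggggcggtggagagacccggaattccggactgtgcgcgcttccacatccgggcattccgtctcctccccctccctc
Atp6v0b and Mcoln1 hold 2 motifs each before the start. Lamp1 was at 621, 675, 626 and 597 CPM with DMSO, 897, 939, 881 and 839 CPM with MK-8722, and 753, 719, 729 and 692 CPM with torin1 in WT. The AMPK KO libraries were at 418, 426, 430 and 427 CPM with DMSO, 436, 434, 437 and 431 CPM with MK-8722, and 606, 513, 602 and 560 CPM with torin1. In WT the DMSO, torin1 and MK-8722 groups followed each other upward without overlap, and in AMPK KO torin1 stood above the rest. It rose 1.41-fold with MK-8722 in WT (log2 0.50, SE 0.047, edgeR adjusted p = 2.4e-08).

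Torin1 moved fewer members, and in both directions. In WT 15 of 38 rose and 7 fell, against 26.6% and 21.1% of all tested genes, and the median log2 fold change was 0.15 beside 0.04 for all tested genes. The comparison uses the same DMSO libraries as that of MK-8722, so the values are given side by side without a test of likeness.

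The membrane proteins made up most of the rises, with 9 of 13 higher and 1 lower. Ctns rose 2.41-fold (log2 1.27, SE 0.128, edgeR adjusted p = 8.2e-09) in WT. Mcoln1 (ENSMUSG00000004567, chr8:3500457-3515232), which releases calcium from the lysosome, was at 36.0, 38.6, 35.7 and 32.3 CPM with DMSO, 79.5, 81.1, 75.4 and 78.7 CPM with MK-8722, and 76.0, 70.7, 69.5 and 73.3 CPM with torin1 in WT. Its MK-8722 and torin1 libraries overlapped, and both lay well above DMSO. Torin1 raised it 2.03-fold (log2 1.02, SE 0.072, edgeR adjusted p = 1.9e-11). In AMPK KO it was at 35.5, 30.7, 33.8 and 31.7 CPM with DMSO, 39.0, 33.4, 32.9 and 33.4 CPM with MK-8722, and 77.0, 58.4, 72.6 and 69.5 CPM with torin1, with torin1 high and MK-8722 near DMSO.

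Slc38a9 (ENSMUSG00000047789, chr13:112660751-112738749), which senses lysosomal arginine for MTORC1, was at 6.15, 6.44, 6.14 and 5.51 CPM with DMSO, 8.81, 8.21, 6.68 and 8.01 CPM with MK-8722, and 11.4, 9.01, 11 and 10.8 CPM with torin1 in WT. Every torin1 library was above every MK-8722 library, and these were above every DMSO library. The rise with torin1 was 1.74-fold (log2 0.80, SE 0.093, edgeR adjusted p = 8.9e-08). In AMPK KO it was at 8.45, 6.80, 7.95 and 8.41 CPM with DMSO, 8.63, 7.97, 7.73 and 7.53 CPM with MK-8722, and 11.7, 10.2, 11.4 and 10.6 CPM with torin1, again with torin1 highest and the other groups overlapping. A processed pseudogene lies inside this gene on the same strand, and correcting for transcript length ended its calls for MK-8722 in WT and for torin1 in AMPK KO.

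Npc1 (0.74), Tpcn2 (0.66), Clcn7 (0.59), Scarb2 (0.52), Tmem192 (0.40) and Lamp2 (0.33) rose too, and Lamp1 (0.20, SE 0.047), Cd63 (0.03, SE 0.048) and Ostm1 (-0.19, SE 0.073) were not called. Of the 20 tested V-ATPase and accessory genes 6 rose (30.0%) and 3 fell (15.0%). These shares were not far from the 26.6% and 21.1% of all tested genes, so a mix of directions was not particular to the pump. Atp6v0d1 (0.62), Atp6v0e2 (0.65), Atp6v1b2 (0.54), Atp6v1d (0.54), Atp6v1g2 (0.65) and Atp6ap2 (0.56) rose, while Atp6v0c, Atp6v0e (-0.56) and Atp6v0a2 (-0.45) fell. The 6 other V1 genes that rose with MK-8722, namely Atp6v1a, Atp6v1c1, Atp6v1e1, Atp6v1f, Atp6v1g1 and Atp6v1h, had log2 fold changes of 0.07, -0.02, -0.03, 0.14, 0.10 and -0.09 with torin1, none of them called. Of the Ragulator genes 0 rose and Lamtor3 (-0.50), Lamtor4 (-0.29) and Lamtor5 (-0.27) fell.

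Atp6v0c (ENSMUSG00000024121, chr17:24163866-24169702) was at 357, 385, 376 and 377 CPM with DMSO, 475, 494, 465 and 474 CPM with MK-8722, and 248, 266, 230 and 252 CPM with torin1 in WT. It was thus above DMSO with MK-8722 and below DMSO with torin1, with no overlap among the 3 groups. The fall was to 0.666-fold (log2 -0.59, SE 0.043, edgeR adjusted p = 3.4e-11). In AMPK KO it was at 271, 281, 283 and 294 CPM with DMSO, 282, 288, 265 and 268 CPM with MK-8722, and 224, 205, 217 and 208 CPM with torin1. There too torin1 gave the lowest libraries, and DMSO and MK-8722 overlapped. The annotated pseudogene Atp6v0c-ps2 took 0.901 ± 0.376 to 1.70 ± 0.222 CPM in the WT groups (SD, n = 4 each) and from 27.6 ± 1.43 up to 34.9 ± 2.44 CPM in the AMPK KO groups, and reads of near-identical copies can be split in counting. With the copies added in, the log2 ratio of the means to DMSO stayed at -0.59 in WT and was -0.39 in AMPK KO with torin1.

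Tpcn1 (ENSMUSG00000032741, chr5:120534153-120588673), a 2-pore cation channel, was at 41.7, 47.4, 48.7 and 50.3 CPM with DMSO, 37.9, 41.6, 41.4 and 46.1 CPM with MK-8722, and 28.6, 33.8, 30.0 and 32.8 CPM with torin1 in WT. In the AMPK KO cells, Tpcn1 was at 57.5, 59.8, 59.6 and 62.6 CPM with DMSO, 59.4, 63.9, 61.6 and 60.4 CPM with MK-8722, and 42.8, 45.9, 45.0 and 42.0 CPM with torin1. The torin1 libraries were the lowest in both genotypes. Relative to DMSO it fell to 0.666-fold in WT (log2 -0.59, SE 0.062, edgeR adjusted p = 1.8e-08) and to 0.733-fold in AMPK KO (log2 -0.45, SE 0.060, adjusted p = 1.1e-06). Atp6v0e (ENSMUSG00000015575, chr17:26663231-26699647), the common form of the smallest V0 subunit, was at 52.1, 55.0, 60.7 and 57.4 CPM with DMSO, 63.1, 69.2, 62.9 and 60.9 CPM with MK-8722, and 36.3, 43.5, 34.9 and 37.7 CPM with torin1 in WT. Its libraries from AMPK KO cells were at 53.1, 52.9, 56.5 and 61.7 CPM with DMSO, 56.5, 56.7, 59.7 and 59.1 CPM with MK-8722, and 36.9, 41.3, 39.3 and 37.3 CPM with torin1. It was again lowest with torin1 in both genotypes, without overlap, and in AMPK KO fell to 0.691-fold (log2 -0.53, SE 0.064, edgeR adjusted p = 1.8e-07).

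**Figure D4:**
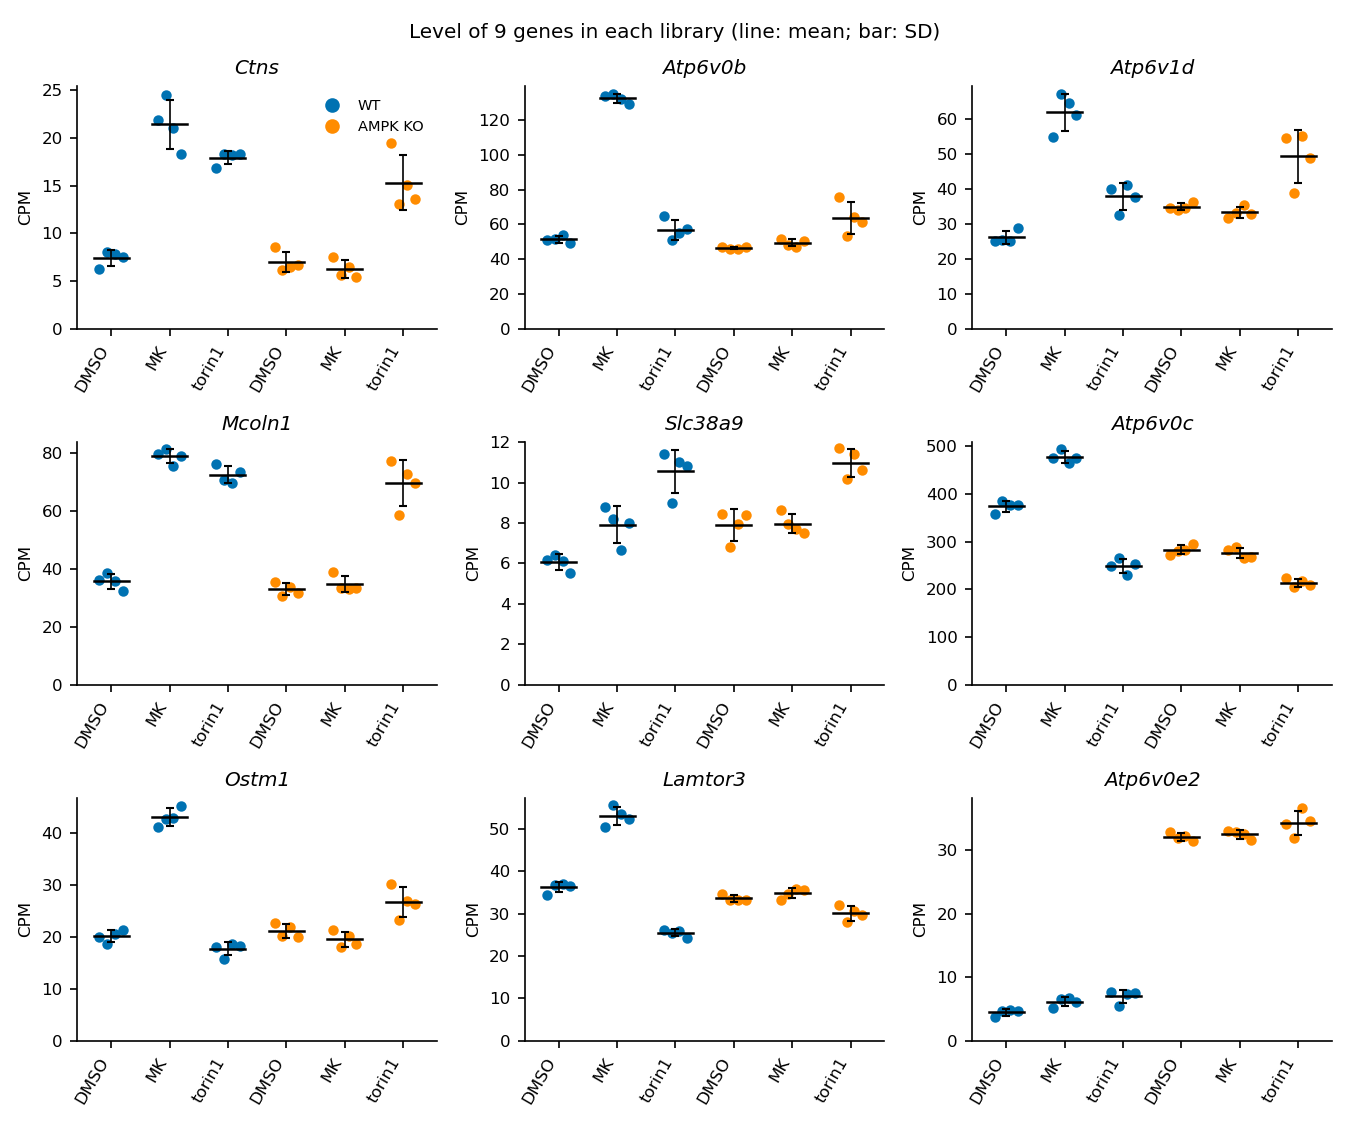
Level (CPM, y axis from 0) of 9 genes in each of the 24 libraries, as points by group (x axis, MK for MK-8722) with the mean as a line and the SD as a bar, WT in blue and AMPK KO in orange. Ctns and Mcoln1 are high with both drugs in WT and with torin1 in AMPK KO, Atp6v0b, Ostm1 and Lamtor3 are high with MK-8722 in WT, and Atp6v0e2 is set apart by genotype.

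In AMPK KO cells torin1 again raised Ctns, Mcoln1 and Npc1 and lowered Atp6v0c, Atp6v0e and Tpcn1. There 16 of 38 rose and 6 fell, against 25.9% and 17.6% of all tested genes, and without the low-count Atp6v0a4 and Atp6v1c2 4 fell of 36. Of the rises 13 were shared between genotypes, which is 86.7% of those in WT and 81.2% of those in AMPK KO, and 4 falls were shared, which is 57.1% and 66.7%. Over all tested genes the shared shares were 74.7% and 76.6% of the rises and 66.6% and 79.9% of the falls. The 2 falls called in AMPK KO alone were those of Atp6v0a4 and Atp6v1c2. With 0 to 2 and 1 to 3 counts in WT DMSO, these genes could hardly be called lower there. The 66.7% is therefore not to be set against the 79.9%. The 2 comparisons have no library in common, and 0 members were called in opposite directions. Ctns rose 2.19-fold (log2 1.13, SE 0.128, edgeR adjusted p = 7.4e-08) and Mcoln1 2.11-fold (log2 1.08, SE 0.072, adjusted p = 1.6e-11). Npc1 (ENSMUSG00000024413, chr18:12189692-12236400), which exports cholesterol from the lysosome, was at 43.6, 47.5, 47.5 and 45.7 CPM with DMSO, 91.7, 95.7, 95.8 and 91.2 CPM with MK-8722, and 80.7, 68.9, 82.8 and 75.8 CPM with torin1 in WT. Levels of Npc1 in AMPK KO were 31.2, 27.2, 28.7 and 27.1 CPM with DMSO, 28.2, 27.7, 25.9 and 26.1 CPM with MK-8722, and 59.2, 43.8, 54.5 and 50.4 CPM with torin1. It rose 1.82-fold in AMPK KO (log2 0.86, SE 0.072, edgeR adjusted p = 5e-10), to a level at which 1 library lay within the range of WT DMSO and 3 above it.

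The torin1 by genotype interaction called 4 members, 2 higher and 2 lower in AMPK KO. That is 5.26% each way, not far from the 4.15% and 2.92% of all tested genes. The balance of the calls over all genes, 657 higher and 462 lower, turned with the processing, to 308 and 831 when only the groups compared were fitted and to 517 and 549 with DESeq2's size factors. Ostm1 (ENSMUSG00000038280, chr10:42583822-42702459), the beta subunit of the Clcn7 exchanger, was at 20, 18.6, 20.5 and 21.3 CPM with DMSO, 41.0, 42.6, 42.9 and 45.2 CPM with MK-8722, and 18.0, 15.8, 18.6 and 18.3 CPM with torin1 in WT. With AMPK KO the values were 22.6, 20.1, 21.9 and 19.9 CPM with DMSO, 21.3, 18.1, 20.1 and 18.6 CPM with MK-8722, and 30.2, 23.3, 26.9 and 26.2 CPM with torin1. The torin1 libraries lay at or below the lowest DMSO library in WT and above every DMSO library in AMPK KO, a difference of 0.52 (SE 0.102, edgeR adjusted p = 0.0024). Lamtor3 (ENSMUSG00000091512, chr3:137918506-137928900), a scaffold subunit of Ragulator, was at 34.5, 36.7, 37.0 and 36.6 CPM with DMSO, 50.5, 55.7, 53.6 and 52.4 CPM with MK-8722, and 26.2, 25.5, 26.0 and 24.3 CPM with torin1 in WT. The AMPK KO libraries were at 34.7, 33.2, 33.1 and 33.3 CPM with DMSO, 33.1, 34.7, 35.7 and 35.6 CPM with MK-8722, and 32.0, 27.9, 30.7 and 29.7 CPM with torin1. Torin1 gave the lowest libraries in both genotypes, with a log2 fold change of -0.50 in WT and -0.16, not called, in AMPK KO. The difference was 0.35 (SE 0.064, edgeR adjusted p = 0.0014), and at 0.25 it was no longer called without WT torin1 replicate 1.

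Tpcn2 (ENSMUSG00000048677, chr7:145186524-145284011) was at 10.2, 11.3, 11 and 10.8 CPM with DMSO, 10.6, 11.4, 10.7 and 11.4 CPM with MK-8722, and 16.5, 16.4, 16.7 and 18.9 CPM with torin1 in WT. In the AMPK KO cells, Tpcn2 was at 8.76, 8.35, 8.82 and 6.97 CPM with DMSO, 8.81, 8.39, 8.95 and 7.85 CPM with MK-8722, and 9.34, 9.24, 8.69 and 8.64 CPM with torin1. With torin1 every WT library lay above all DMSO libraries, while in AMPK KO the groups overlapped. The difference was -0.53 (SE 0.101, edgeR adjusted p = 0.0019). Atp6v0e2 (ENSMUSG00000039347, chr6:48537615-48541801) was at 3.67, 4.72, 4.88 and 4.65 CPM with DMSO, 5.23, 6.50, 6.75 and 6.13 CPM with MK-8722, and 7.71, 5.49, 7.39 and 7.51 CPM with torin1 in WT. Its libraries from AMPK KO cells were at 32.9, 31.9, 32.3 and 31.4 CPM with DMSO, 33.1, 32.9, 32.5 and 31.6 CPM with MK-8722, and 34.2, 31.9, 36.6 and 34.6 CPM with torin1. Torin1 and DMSO libraries were apart in WT and overlapped in AMPK KO, and every AMPK KO library was far above every WT library. The log2 change with torin1 was smaller in AMPK KO by 0.56 (difference -0.56, SE 0.126, edgeR adjusted p = 0.0064). None of the 4 was called when the difference was tested against a fold change of 1.2.

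Set against each other in WT, the drugs left most pump genes lower with torin1 than with MK-8722. There 26 members were lower with torin1 than with MK-8722 and 3 were higher, against 21.2% and 24.5% of all tested genes. Of the 20 tested V-ATPase and accessory genes 16 were lower and 1, Atp6v1g2 (0.91, SE 0.100), was higher. The widest gaps were those of Ostm1 (-1.28, SE 0.072), Atp6v0b (-1.22, SE 0.073), Lamtor3 (-1.06, SE 0.045) and Atp6v1h (-1.04, SE 0.061). Ctns (-0.26, SE 0.120), Mcoln1 (-0.12, SE 0.070), Clcn7 (-0.25, SE 0.067), Scarb2 (-0.07, SE 0.070) and Tmem192 (-0.15, SE 0.055) were not called, with 95% intervals of -0.51 to -0.01 for Ctns and -0.26 to 0.02 for Mcoln1. In AMPK KO 15 members were higher with torin1 than with MK-8722 and 6 lower, against 26.8% and 18.7%, and 15 higher and 4 lower of 36 without the low-count Atp6v0a4 and Atp6v1c2. The 2 compounds act on different targets, and their doses are not in the labels.

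**Figure D5:**
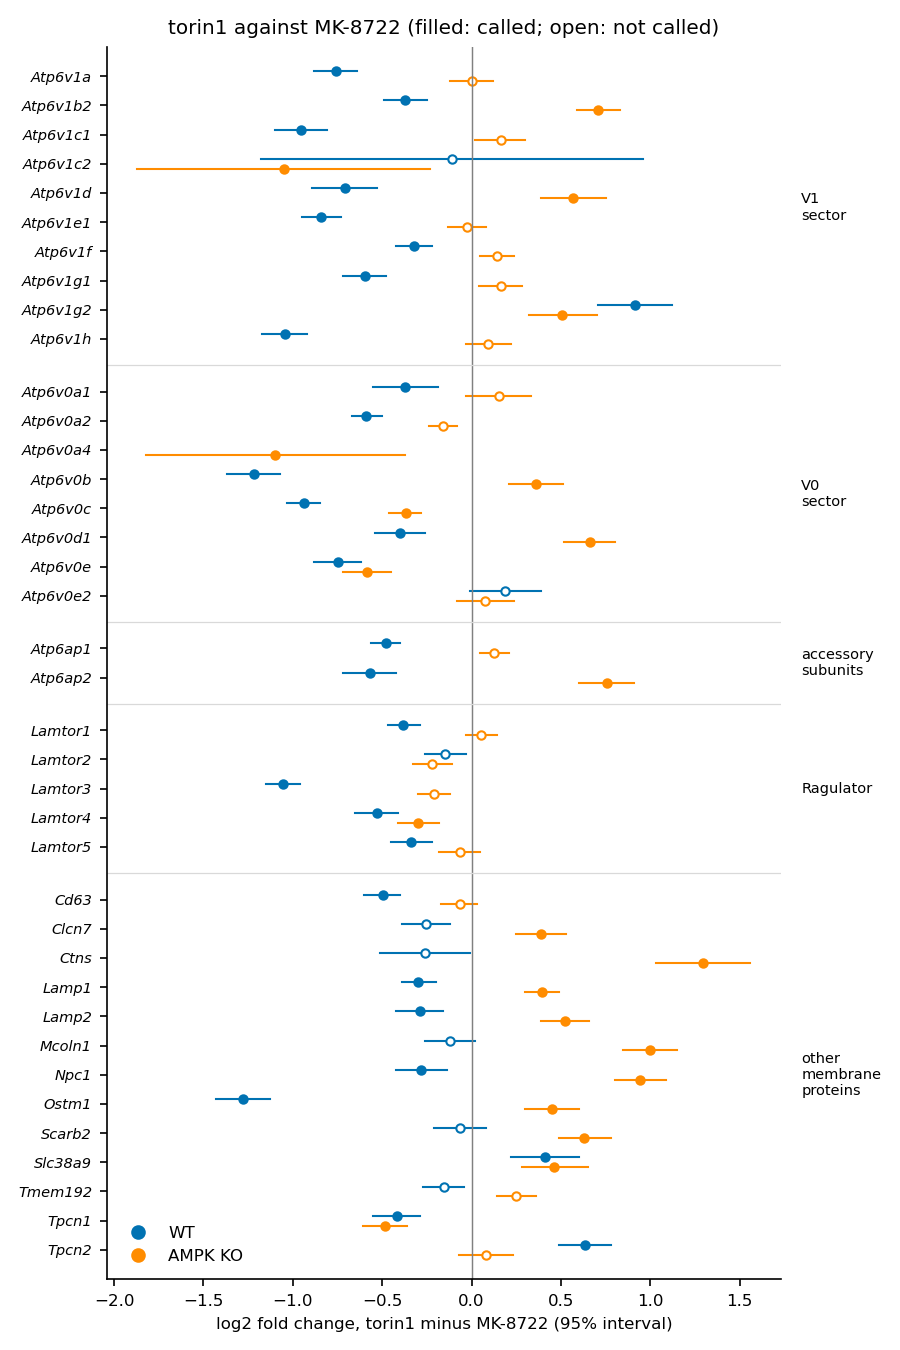
Log2 fold change of torin1 against MK-8722 with its 95% interval (x axis) for the 38 tested genes (rows, by role) in WT (blue) and AMPK KO (orange), 4 libraries a group, filled where called. Atp6v0a4 is not drawn in WT. In WT 26 filled points lie below 0 and 3 above, and in AMPK KO 6 lie below, 2 of them the low-count Atp6v0a4 and Atp6v1c2, and 15 above.

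Without drug the members differed between genotypes in both directions, and no more often than all tested genes did. In DMSO 11 members were higher (28.9%) and 7 lower (18.4%) in AMPK KO than in WT, against 30.9% and 26.0% of all tested genes. Without Atp6v0a4 and Atp6v1c2, 9 were higher and 7 lower of 36. The higher genes included Atp6v0e2, 7.20-fold (log2 2.85, SE 0.092, edgeR adjusted p = 3.1e-18), Atp6v1a (0.54), Atp6v1c1 (0.49), Atp6v1e1 (0.43), Atp6v1d (0.42), Slc38a9 (0.38), Tpcn1 (0.35) and Atp6v0d1 (0.31). Atp6v1g2 (ENSMUSG00000024403, chr17:35233660-35238767), the G form best known from neurons, was at 5.15, 5.63, 3.83 and 4.65 CPM with DMSO, 4.06, 4.01, 3.86 and 4.12 CPM with MK-8722, and 7.13, 7.96, 7.47 and 7.65 CPM with torin1 in WT. Levels of Atp6v1g2 in AMPK KO were 6.99, 7.28, 6.84 and 7.46 CPM with DMSO, 8.0, 6.91, 8.11 and 6.28 CPM with MK-8722, and 10.6, 10.3, 11 and 9.65 CPM with torin1. The 2 genotypes were apart with DMSO, at 1.48-fold (log2 0.57, SE 0.097, edgeR adjusted p = 1.5e-05). Atp6v0a4, the kidney form of subunit a, had 0 to 2 counts in WT DMSO and 22 to 33 in AMPK KO DMSO, at least 7.48-fold higher against the floor of 3 counts in each WT library. Atp6v1c2 had 1 to 3 and 9 to 19 counts, and another gene, Pdia6, overlaps it on the opposite strand.

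The lower genes were Npc1 at 0.620-fold (log2 -0.69, SE 0.072, edgeR adjusted p = 8.4e-09), Lamp2, Lamp1 (-0.57), Atp6ap2 (-0.43), Atp6v0c (-0.41), Cd63 (-0.40) and Tpcn2 (-0.40). Lamp2 (ENSMUSG00000016534, chrX:38401357-38456454), which also serves chaperone-mediated autophagy, was at 149, 156, 152 and 139 CPM with DMSO, 220, 247, 234 and 213 CPM with MK-8722, and 199, 186, 187 and 176 CPM with torin1 in WT. With AMPK KO the values were 104, 100, 100 and 95.6 CPM with DMSO, 97.4, 96.8, 109 and 100 CPM with MK-8722, and 165, 125, 153 and 137 CPM with torin1. The AMPK KO libraries with DMSO were at 0.672-fold of WT (log2 -0.57, SE 0.066, edgeR adjusted p = 4.2e-08), with no overlap. Of the 3 members on the X chromosome, Lamp2, Atp6ap2 and Atp6ap1, 2 were called lower in AMPK KO. Among all tested genes 26.0% were called lower, and 3 genes are too few to compare with that share. Adding the pseudogene copies to Atp6v0c brought its log2 ratio of means from -0.41 to -0.25, under the fold threshold. Genotype, passage range, sex-linked transcripts and fibroblast markers all differ between the 2 lines and cannot be told apart here.

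Other genes of the same compartment were counted from 3 lists. The list of assembly factors and regulators also holds Tcirg1, a form of V0 subunit a that is not among the members. With MK-8722 in WT, 7 of 15 tested V-ATPase assembly factors and regulators, 18 of 35 other lysosomal membrane genes and 3 of 12 lysosome positioning factors rose, and 0 fell, beside 10.0% and 5.66% of all tested genes. Median log2 fold changes were 0.24, 0.35 and -0.00. Pip4p1, a phosphoinositide phosphatase, rose by 1.08 (SE 0.072), from 32.9 ± 2.12 to 69.9 ± 3.28 CPM. The transporter Mfsd1 rose by 0.92 (SE 0.071), from 74.7 ± 2.26 to 142 ± 9.33 CPM, and the sialic acid exporter Slc17a5 by 0.89 (SE 0.099), from 11.2 ± 0.441 to 20.7 ± 2.03 CPM (SD, n = 4 each). In AMPK KO 0 genes of the 3 lists were called with MK-8722, in a comparison with few calls among all genes.

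With torin1 in WT, 3 of 15 assembly factors rose and 3 fell, 18 of 35 other membrane genes rose and 2 fell, and 5 of 12 positioning factors rose and 0 fell, beside 26.6% and 21.1% of all tested genes. The corresponding counts in AMPK KO were 4 and 5, 19 and 1, and 4 and 0, beside 25.9% and 17.6%. The share of assembly factors that rose was near that of all genes in both genotypes. The peptide transporter Abcb9 rose by 1.44 (SE 0.241) from 0.664 ± 0.129 to 1.80 ± 0.430 CPM and the ion channel Tmem175 by 1.34 (SE 0.098) from 12.8 ± 0.806 to 32.7 ± 2.64 CPM. The iron transporter Slc11a2 fell by 1.18 (log2 -1.18, SE 0.070), from 44.4 ± 3.60 to 19.5 ± 1.37 CPM, and also fell in AMPK KO (-0.92, SE 0.066, SD of n = 4 in each group).

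Transcript usage, the share of a gene's TPM held by each of its transcripts, gave no call among the members. Among 149 transcripts of 35 members with more than 1 transcript tested, 0 shifted by at least 10 percentage points at an adjusted p under 0.05 in any of the 4 drug comparisons. Among all 52024 transcripts, the shares that did were 0.0231% for MK-8722 in WT, 0.00192% for MK-8722 in AMPK KO, 0.208% for torin1 in WT and 0.0788% for torin1 in AMPK KO. Of 596 tests on the members 11 had an unadjusted p under 0.05 in edgeR's differential usage test, the one tool run on transcripts. Lamp2, whose splice forms differ in their C-terminal tail, kept its main transcript ENSMUST00000016678 at 59.8 ± 1.13% of its TPM with DMSO, 56.9 ± 1.74% with MK-8722 and 58.4 ± 2.49% with torin1 in WT. The largest mean shifts were in genes whose libraries spread widely, with Slc38a9 transcript ENSMUST00000223581 at 37.1 ± 9.63% with DMSO and 14.7 ± 19.1% with torin1 in AMPK KO, and Tpcn2 transcript ENSMUST00000058022 at 39.7 ± 6.89% and 59.2 ± 9.21% in WT (SD, n = 4 each). Neither was called. Atp6v1h transcript ENSMUST00000194676 went from 21 ± 0.423% to 10.0 ± 2.50% with torin1 in WT without overlap, and was not called either (SD, n = 4 each, edgeR adjusted p = 0.18). A minor Atp6v1a transcript, ENSMUST00000137557, passed the adjusted p with torin1 in WT (edgeR adjusted p = 0.0027) but held 1.56 ± 1.31% with DMSO, too small a share to reach the threshold of 10 points.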

How the data were processed

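Poly(A) RNA-seq was compared in 24 MEF libraries, grouped by their labels for genotype and treatment. According to the study's methods, reads were processed by the authors in nf-core/rnaseq, with STAR, GRCm38 and settings for molecular identifiers. Those methods also state that a batch effect was removed with limma, without naming the batch. The main fit here has no batch term. The submitters' processing notes also name Salmon, with no versions. The deposited gene table holds estimated counts, not normalized, and transcript-level files, also deposited, give estimated counts and TPM. Gene counts equalled the transcript sums, so splitting between near-identical copies follows the authors' quantification, whose use of strand is not given in the sources used here.

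Counts were rounded, filtered with filterByExpr, scaled by TMM, and fitted as 6 group means with every library included (edgeR 4.0.16, limma 3.58.1, R 4.3.3). Tests were two-sided, with Benjamini-Hochberg adjustment over 15828 genes (99.96% of counts). Calls required a 1.2-fold change and an adjusted p below 0.05, the thresholds of the study. Intervals of 95% come from that model, whose common biological coefficient of variation was 0.079. TPM of a gene is the sum over its transcripts. Totals of 26900240 to 34192685 counts set the precision, and floors cover counting error only. Positions are GENCODE M21 on GRCm38, and promoter windows are RefSeq's. For the 9 other members no window was given.

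Values in every library are given by a rule, namely for the 3 largest called rises and 2 largest called falls per drug comparison, the 2 largest in each direction per interaction and between genotypes, at a mean of at least 1 CPM, and for tissue-restricted isoforms above 1 TPM. The members and lists were chosen with earlier results of these data known, and the lists are no independent support. On simulated counts of 14475 genes for MK-8722 in WT, 97% of 100 genes changed 1.5-fold and 100% of 100 genes changed 2-fold were called, with 5 false among 202 calls and 0 calls in a comparison without change. Smaller changes were not simulated, so these counts do not show how often a change near 1.2-fold is called. Alternatives were other scalings, filters, offsets, blocks and thresholds, DESeq2 1.42.0, and leaving out each library.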

Additional observations from a re-analysis of the deposited data

Results flagged for a closer look

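A Dixon test at the 95% level picked out 1 library in 12 of 228 groups of 4, or 5.26%, where chance gives about 1 in 20. In CPM, with the range of the other 3 libraries, these were Atp6ap1 in WT DMSO replicate 2 at 159 (153 to 153) and in AMPK KO DMSO replicate 3 at 124 (130 to 131), Atp6v0e2 in WT torin1 replicate 2 at 5.49 (7.39 to 7.71) and Atp6v1d in WT DMSO replicate 3 at 28.7 (25.1 to 25.5). Atp6v1e1 in AMPK KO DMSO replicate 4 was at 57.0 (53.1 to 53.7), Atp6v1f in AMPK KO MK-8722 replicate 4 at 57.3 (51.1 to 51.9), Ctns in WT torin1 replicate 4 at 16.9 (18.2 to 18.3) and Lamtor2 in WT DMSO replicate 1 at 25.1 (27.6 to 28.0). Lamtor3 in WT DMSO replicate 4 was at 34.5 (36.6 to 37.0) and in AMPK KO DMSO replicate 3 at 34.7 (33.1 to 33.3), Mcoln1 in AMPK KO MK-8722 replicate 2 at 39.0 (32.9 to 33.4) and Tpcn2 in WT torin1 replicate 1 at 18.9 (16.4 to 16.7).

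The response to MK-8722 differed between genotypes by edgeR's interaction test in 28 members. As log2 differences, AMPK KO minus WT, they were -0.81 for Atp6v1a, -0.96 for Atp6v1b2, -0.90 for Atp6v1c1, -1.32 for Atp6v1d, -0.81 for Atp6v1e1, -0.39 for Atp6v1f, -0.60 for Atp6v1g1 and -0.88 for Atp6v1h in V1. In V0 and the accessory subunits they were -0.44 for Atp6v0a1, -1.28 for Atp6v0b, -0.39 for Atp6v0c, -1.02 for Atp6v0d1, -0.45 for Atp6v0e2, -0.43 for Atp6ap1 and -1.05 for Atp6ap2. In Ragulator they were -0.38 for Lamtor1, -0.50 for Lamtor3 and -0.26 for Lamtor4. In the other membrane genes they were -0.41 for Cd63, -0.79 for Clcn7, -1.70 for Ctns, -0.47 for Lamp1, -0.61 for Lamp2, -1.06 for Mcoln1, -1.10 for Npc1, -1.21 for Ostm1, -0.66 for Scarb2 and -0.44 for Tmem192. The response to torin1 differed by -0.56 for Atp6v0e2, 0.35 for Lamtor3, 0.52 for Ostm1 and -0.53 for Tpcn2.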

How the results depend on the processing

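The number of members called moved with the fold threshold. At a fold change of at least 1.5 the calls were 17 for MK-8722 in WT, 11 and 8 for torin1 in WT and AMPK KO, 4 between genotypes, 14 and 9 for torin1 against MK-8722 in WT and AMPK KO, 17 for the MK-8722 interaction and 0 for the torin1 interaction. Those between genotypes and for the torin1 comparisons in AMPK KO include Atp6v0a4 and Atp6v1c2, which passed the filter through AMPK KO groups alone. On the adjusted p alone the calls were 28 between genotypes and 7 for the torin1 interaction, and tested against a fold change of 1.2 the latter was 0. Leaving out each library gave 28 to 29 calls for MK-8722 in WT, 0 to 0 in AMPK KO, 21 to 22 and 21 to 23 for torin1, 19 to 20 between genotypes, 26 to 30 and 21 to 21 for torin1 against MK-8722, and 26 to 29 and 3 to 5 for the interactions. With a replicate block by passage the counts were 28, 0, 22, 22, 18, 29, 21, 29 and 6, in the order MK-8722 in WT and AMPK KO, torin1 likewise, genotype, torin1 against MK-8722 likewise, and both interactions. With the replicate block by title number they were 28, 0, 22, 22, 18, 29, 21, 28 and 4. The deviations of libraries of the same passage correlated at between -0.01 and 0.37, and those of other passages at -0.25 to 0.07. Each passage label occurs once in every group of its genotype, so the labels allow a block by passage. Not every pair was over 0.1, but 5 to 7 of the 8 libraries of a comparison correlated best with their own passage. The main fit did not pair the libraries, so the p values given in Results leave this pairing out. Over all genes the block by passage raised the calls from 137 higher and 110 lower to 414 and 315 for MK-8722 in AMPK KO, and from 657 and 462 to 987 and 874 for the torin1 interaction. Transcript length offsets reversed Slc38a9 for torin1 against MK-8722 in AMPK KO, at -0.02 (edgeR adjusted p = 0.94), and the cause was not tested. The same offsets gave it 0.38 (adjusted p = 0.17) for MK-8722 in WT. Leaving out 1 library ended several calls near a threshold, with log2 values as follows. For torin1 in WT, Lamtor5 was -0.20 without WT torin1 replicate 1 and -0.25 without WT DMSO replicate 4. For torin1 in AMPK KO, Ostm1 was 0.26 without AMPK KO torin1 replicate 1, and Atp6v1c2 was -0.96, -0.80, -0.93 and -0.67 without DMSO replicates 1 and 3 and torin1 replicates 3 and 4. Between genotypes Atp6v0d1 was 0.24 without WT DMSO replicate 4. For torin1 against MK-8722 in WT, Lamp1 (-0.25), Lamp2 (-0.24) and Npc1 (-0.25) lost their calls without WT torin1 replicate 1, Lamp2 also without torin1 replicate 3 (-0.26) and MK-8722 replicates 1 (-0.26) and 4 (-0.25), and Npc1 without torin1 replicate 2 (-0.24) and MK-8722 replicate 4 (-0.24). In AMPK KO, Atp6v1c2 lost that call without MK-8722 replicate 3 (-0.96) and torin1 replicates 3 (-1.0) and 4 (-0.74). For the MK-8722 interaction Lamtor4 lost its call on leaving out any 1 of 9 libraries (-0.25 to -0.22), and Atp6v0e2 without WT DMSO replicate 4 (-0.36) or WT MK-8722 replicate 4 (-0.39). For the torin1 interaction Lamtor3 lost its call without WT torin1 replicate 1 (0.25). Library size alone put the median log2 fold change of all genes at 0.15 between genotypes and 0.14 for torin1 in WT, where TMM gave 0.02 and 0.04. For the torin1 interaction the calls over all genes were 418 higher and 576 lower with library size alone, 388 and 689 with at least 10 counts in every library, 410 and 541 with the GC and length trend removed, 417 and 918 without passages 12 and 16, and 581 and 614 by DESeq2.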
